A study of Mus musculus with 37 samples.

Results

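SNORD3A (ENSG00000263934), MALAT1 (ENSG00000251562), NEAT1 (ENSG00000245532), RN7SK (ENSG00000283293), RN7SL1 (ENSG00000276168) and RN7SL2 (ENSG00000274012) are noncoding RNAs that many cell types hold in large amounts. Of these 6 RNAs, selected by their Ensembl IDs from the 60708 rows of the count table, 3 were captured in these libraries (SNORD3A, MALAT1 and RN7SL1). The other 3 had a mean count under 10 and are given as not captured. SNORD3A was picked out because its counts had already been seen to differ between splenocytes kept with washed and with unwashed macrophages. Its differences between those modes, and of each from the naive and medium samples, are therefore given as a description with no test.

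The samples were splenocytes of wild-type FVB mice, a mixed spleen cell suspension freed of red cells. In 35 of the 37 libraries they had spent 48 h with RAW264.7 cells, which are a mouse macrophage-like line (unwashed, "cells", 12 libraries; after a wash of the medium, "washed", 12 libraries), or with the culture medium of those cells ("medium", 11 libraries). The RAW264.7 cells had been kept beforehand for 72 h in normoxia (21% O2) or hypoxia (1% O2), either with SPP1 or without it (SPP1 is osteopontin, a ligand of integrins and CD44). The 2 naive libraries came from splenocytes that had received neither, and the sources used here do not say whether these had been cultured. Each of the 12 exposed groups had 3 libraries except medium, normoxia, noSPP1, which had 2 (replicates 2 and 3). Brefeldin A, which blocks protein secretion, was added at the end of the 48 h. Nothing in the labels ties a library to an animal, so p-values measure the spread between libraries, which may be technical. The paper states at least 3 independent repeats of the co-culture experiments. It does not say whether the replicate numbers of the libraries stand for those repeats. RNA of the RAW264.7 cells may be part of the cells and washed libraries, and the labelled cell type could not be checked against markers here, because the human IDs of the table are not paired with gene names.

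The libraries were 3′ mRNA libraries primed on oligo-dT, and their totals ran from 631574 to 1337314 counts (median 1063211). The authors aligned these mouse reads to the human genome GRCh38, so a count is a mouse read that was placed on a human gene. Levels are given as CPM (counts scaled to a common library total) after TMM scaling, which sets aside the few genes that dominate a library. A level of 1 RNA was compared only between libraries and never with that of another RNA. In such bulk samples, fewer cells of a type and less RNA per cell cannot be told apart.

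The 6 RNAs stand for 3 kinds of noncoding RNA. SNORD3A is a U3 small nucleolar RNA, a box C/D RNA that base-pairs with the precursor of ribosomal RNA in the nucleolus and is needed for its first cleavages. RN7SL1 and RN7SL2 are copies of 7SL, the RNA of the signal recognition particle, which halts the translation of secreted and membrane proteins until the ribosome docks at the endoplasmic reticulum. RN7SK holds the elongation factor P-TEFb in an inactive complex, MALAT1 lies in nuclear speckles with splicing factors, and NEAT1 is the scaffold of paraspeckles. U3, 7SL and 7SK end without a polyA tail, and the mature 3′ end of MALAT1 is cut by RNase P behind a stretch of A that the genome itself encodes.

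Mouse U3 RNAs and Malat1, as counterparts of SNORD3A and MALAT1, show what an oligo-dT primer would meet in each. They were taken by kind of RNA and gene name, and which mouse U3 gene gave the SNORD3A counts was not tested. The sequences are from the GENCODE M21 annotation of the mouse genome GRCm38. The U3 RNA is shown first, because SNORD3A varied most between libraries and because mouse has U3 genes of unlike sequence. Capitals mark bases that differ from the other U3 RNA or have no partner in it. Rnu3a lies at chr10:40258467-40258680 (plus strand) and Rnu3b1 at chr11:87443237-87443452 (plus strand). Each annotated gene is a single snoRNA.
Rnu3a: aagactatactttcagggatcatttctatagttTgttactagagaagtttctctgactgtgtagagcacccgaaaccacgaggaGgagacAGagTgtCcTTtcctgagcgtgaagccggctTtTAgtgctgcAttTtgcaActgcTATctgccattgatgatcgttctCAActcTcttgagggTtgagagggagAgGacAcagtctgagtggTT
Rnu3b1: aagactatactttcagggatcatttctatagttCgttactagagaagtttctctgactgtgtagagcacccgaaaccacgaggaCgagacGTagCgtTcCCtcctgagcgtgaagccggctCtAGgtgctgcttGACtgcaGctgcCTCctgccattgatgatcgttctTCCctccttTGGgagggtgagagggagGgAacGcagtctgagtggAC
Of 219 aligned columns, 187 matched (85.4%), and the first 33 bases were shared. Rnu3b1 was identical to Rnu3b2, Rnu3b3 and Rnu3b4 over all 216 bases. Neither U3 RNA holds a run of A longer than 3 bases.
Malat1 (chr19:5795690-5802672, minus strand) is shown from base 6614 to base 6745 of its 6983-base transcript, with its run of 12 A in capitals. The run starts at base 6674, between a U-rich stretch (letters t below) and the tRNA-like sequence that RNase P cuts off.
Malat1: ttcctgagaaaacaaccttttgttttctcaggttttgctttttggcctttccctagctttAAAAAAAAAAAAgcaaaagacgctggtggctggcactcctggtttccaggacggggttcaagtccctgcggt
Neat1 (20771 bases) and Rn7sk (331 bases) hold no run of A longer than 7 and 3 bases, respectively. A run of at least 12 A was present in 4.07% of all 141767 mouse transcripts in the annotation and in 19.7% of the 7040 that are at least 5000 bases long. These runs describe the mouse RNAs and were not tested against the counts.

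Capture divided the 6 RNAs. MALAT1 had 7767 counts in all (mean 209.9 per library), SNORD3A had 3531 (mean 95.4) and RN7SL1 had 3464 (mean 93.6), and each was counted in all 37 libraries. NEAT1 was counted once, in cells, hypoxia, SPP1 replicate 3. RN7SK and RN7SL2 were at 0 in every library. A count of 0 in the 39892977 counts allows a level of up to 0.0752 CPM over all libraries, and of 2.24 to 4.75 CPM in a single one, for counting error only. RN7SL1 and RN7SL2 are near-identical copies, and how reads that fit several copies were counted is not given in the sources used here, so RN7SL1 values are uncertain as values of 1 copy. The same holds for SNORD3A, which has close copies in the genome.

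SNORD3A, the U3 RNA, was low in the medium libraries and very high in a few of the libraries with RAW264.7 cells. In medium it was at 4.68 and 5.58 CPM after normoxia without SPP1 (replicates 2 and 3), and at 7.92, 11.5 and 4.08 CPM after normoxia with SPP1. After hypoxia it was at 15.4, 8.15 and 9.57 CPM in medium without SPP1 and at 1.93, 11.1 and 7.19 CPM with SPP1. None of these 11 libraries exceeded 20 counts, and the lowest value rested on 2 counts, with a 95% Clopper-Pearson interval of 0.245 to 7.31 CPM of the plain total, for counting error only. With unwashed cells it was at 19.0, 26.0 and 13.3 CPM after normoxia without SPP1, and at 14.7, 18.5 and 10.4 CPM after normoxia with SPP1. It was at 10.8, 440.3 and 16.8 CPM after hypoxia without SPP1, and at 18.3, 22.4 and 22.1 CPM after hypoxia with SPP1. Thus 11 of the 12 cells libraries lay between 10.4 and 26.0 CPM, and 1 stood far above them. With washed cells it was at 29.0, 27.0 and 32.1 CPM after normoxia without SPP1, and at 692, 962 and 29.1 CPM after normoxia with SPP1. It was at 20.2, 898 and 21.2 CPM after hypoxia without SPP1, and at 653, 16.5 and 27.0 CPM after hypoxia with SPP1. In washed, 3 of the 4 groups therefore held libraries on either side of a wide gap. The 2 naive libraries were at 39.0 and 83.4 CPM, above every medium library.

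**Figure D1:**
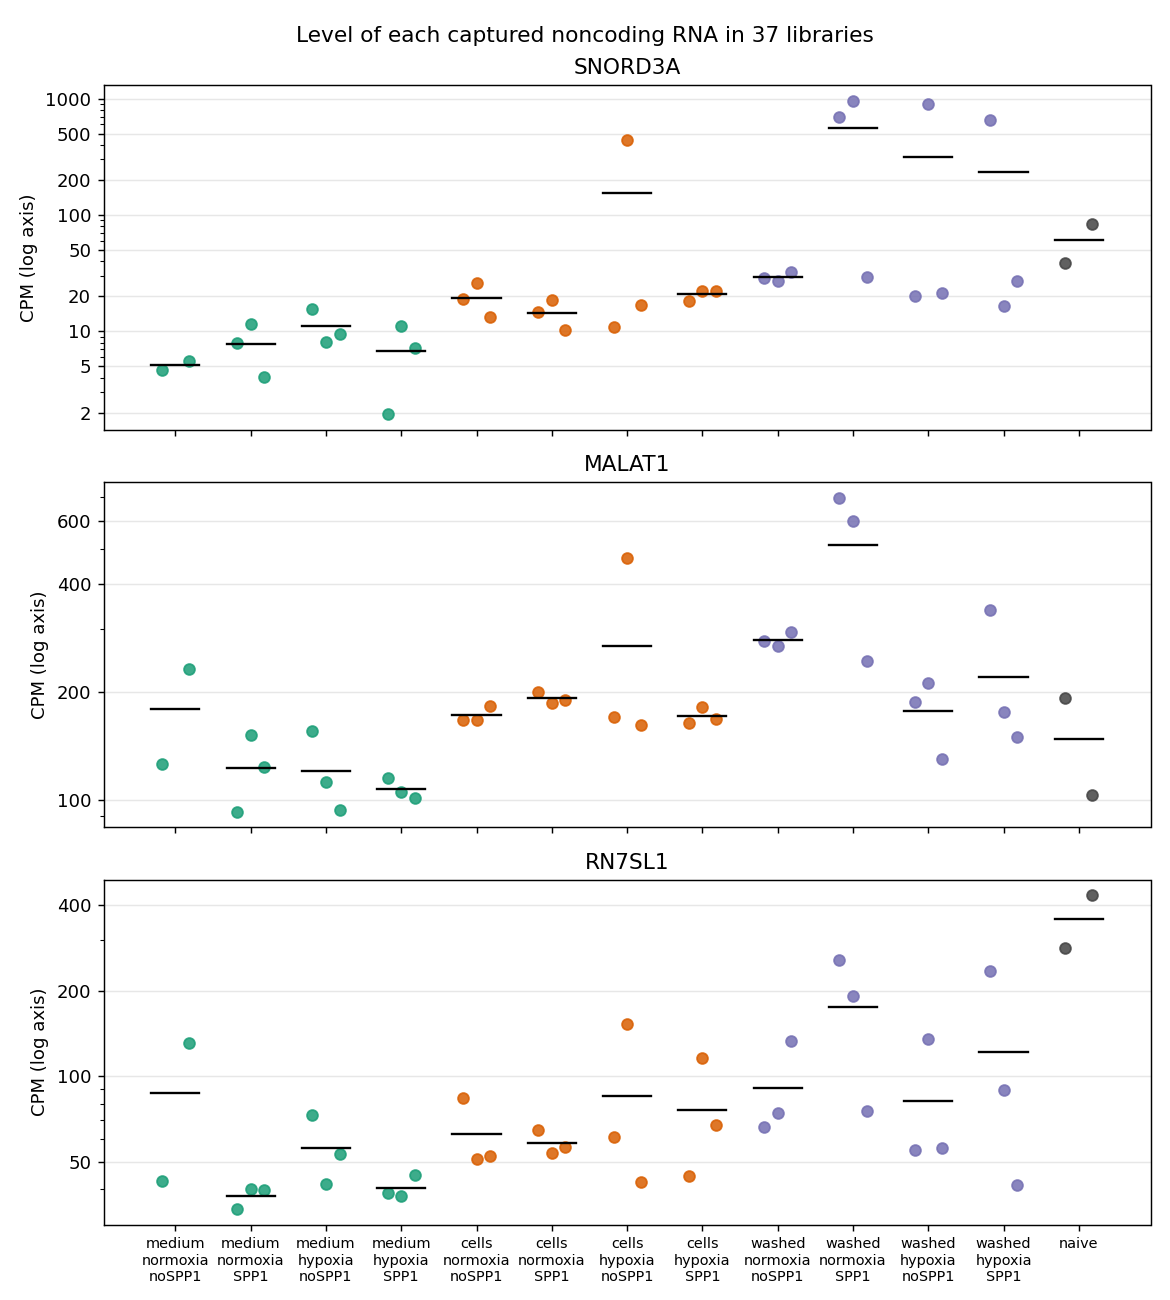
Levels of the 3 captured RNAs in CPM (log axis, a separate one per panel) in the 13 groups; each point is a library and each black line a group mean. SNORD3A splits into 5 libraries between 440.3 and 962 CPM and 32 at 83.4 CPM or below, and RN7SL1 is highest in the 2 naive libraries (281 and 432 CPM).

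By mode, SNORD3A averaged 7.92 CPM ± 3.86 (SD, n = 11) in medium, 52.7 ± 122 (n = 12) in cells, 284 ± 390.3 (n = 12) in washed and 61.2 ± 31.3 (n = 2) in naive. The medians were 7.92, 18.4 and 29.0 CPM in medium, cells and washed, far closer together than the means of cells and washed. Ordered by group mean, washed, normoxia, SPP1 came first (561 CPM ± 480.2, n = 3) and medium, normoxia, noSPP1 last (5.13 ± 0.636, n = 2). In that order the library ranges of 10 of the 12 neighbouring pairs of groups overlapped. The exceptions were naive above washed, normoxia, noSPP1 (29.4 CPM ± 2.59, n = 3), and the latter above cells, hypoxia, SPP1 (20.9 ± 2.26, n = 3). The 4 medium groups took the last 4 places.

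The 5 libraries at 440.3 CPM or above were replicates 1 and 2 of washed, normoxia, SPP1, replicate 2 of washed, hypoxia, noSPP1, replicate 1 of washed, hypoxia, SPP1 and replicate 2 of cells, hypoxia, noSPP1. They made up 4 of 12 washed, 1 of 12 cells, 0 of 11 medium and 0 of 2 naive libraries, and 2 were numbered replicate 1, 3 replicate 2 and 0 replicate 3. They came from both oxygen levels and from both SPP1 settings, but normoxia without SPP1 was not among them. Between the lowest of them and the next library, naive replicate 2 at 83.4 CPM, there was none. Their total counts (691539 to 1055277, median 962194) were all below the median of the 37 libraries (1063211). The other 32 ran from 631574 in naive replicate 2 to 1337314 (median 1092692.5). The totals 691539 and 761571 were below that of every other exposed library (lowest 818419). The number of IDs with a count was 7102 to 9132 in the 5 and 8388 to 10852 in the 32. Most of the 5 stood apart in other genes too. On the second principal component of log2 CPM, computed without the 6 RNAs and holding 12.3% of the variance, they scored 7.65 to 54.7 and the other libraries −20.9 to 14.1, and 4 of the 5 had the highest scores, while washed, hypoxia, noSPP1 replicate 2 (7.65) lay inside the range of the others. The ID ENSG00000080824 was at 12174 to 53821 CPM in the 5 and 1407 to 8989 CPM in the 32, and the ID ENSG00000210082 at 671 to 7456 and 287 to 1197 CPM, ranges that overlap. These 2 IDs were chosen after their values were seen, and what part the state of these libraries had in the levels below was not tested. RNA integrity is not given per library in the sources used here, so it could not be compared between these libraries and the others.

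**Figure D2:**
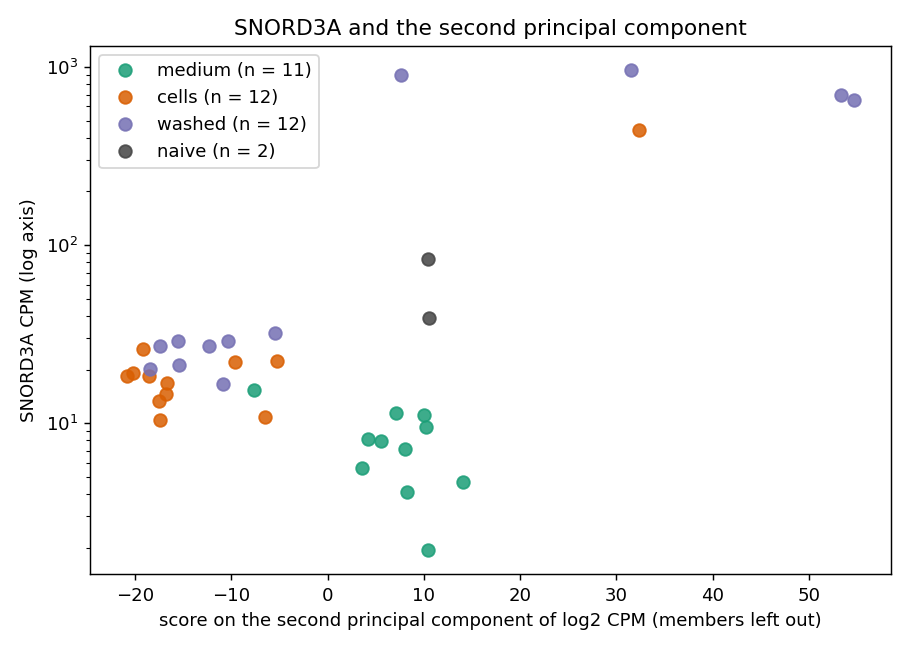
SNORD3A level in CPM (log axis) against the score of each of the 37 libraries on the second principal component of log2 CPM (no unit), computed without the 6 RNAs; colours give the mode. Of the 5 libraries at 440.3 CPM or above, 4 lie to the right of all others and 1, at 898 CPM, has a score of 7.65, within the range of the other libraries.

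Fitted over all 37 libraries with edgeR (13 group means), SNORD3A was higher in washed than in cells by 2.58 on the log2 scale (SE 0.588, 5.97-fold), higher in washed than in medium by 4.62 (SE 0.718, 24.5-fold) and higher in cells than in medium by 2.04 (SE 0.712). Against naive it stood at 1.61 (SE 1.15) in washed and at −0.97 (SE 1.01) in cells. These 5 differences chose the RNA or share its contrast and carry no test. Without the 5 high libraries the washed-to-cells difference was 0.56 (SE 0.24) and the washed-to-medium difference 1.72 (SE 0.255), the cells-to-medium difference was 1.15 (SE 0.241), the difference of cells from naive was −1.78 (SE 0.329), and that of washed from naive turned to −1.22 (SE 0.352). Those 5 were chosen by their SNORD3A level, which by itself lowers the washed and cells levels and the SE. These values therefore only describe the other libraries. The remaining 8 washed libraries averaged 25.3 CPM ± 5.34 (range 16.5 to 32.1), the remaining 11 cells libraries 17.5 ± 4.93 (10.4 to 26.0). The ranges of these libraries overlapped each other, and only that of cells overlapped the medium range. Medium against naive was the difference open to a test. There SNORD3A was lower in medium by 3.01 on the log2 scale (SE 1.03), with an adjusted p = 0.0234 (edgeR quasi-likelihood test, Benjamini-Hochberg over 5193 IDs), and all 11 medium libraries lay below both naive libraries. In this comparison 32.4% of all IDs tested passed, and 2 of the 3 captured RNAs. With the replicate number added to the fit as a block, the SNORD3A difference was −2.46 (SE 0.985, adjusted p = 0.0562, edgeR) and no longer passed. Without naive replicate 2 the difference was −2.39 with an adjusted p = 0.285.

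MALAT1, the nuclear speckle RNA, rose in both modes with RAW264.7 cells relative to medium, and by much less than SNORD3A differed. In medium it was at 126 and 232 CPM (normoxia, noSPP1), 92.7, 152 and 123 CPM (normoxia, SPP1), 156, 112 and 93.9 CPM (hypoxia, noSPP1) and 115, 105 and 102 CPM (hypoxia, SPP1). With unwashed cells it was at 167, 167 and 182 CPM (normoxia, noSPP1), 199.8, 186 and 190.3 CPM (normoxia, SPP1), 171, 472 and 162 CPM (hypoxia, noSPP1) and 164, 182 and 168 CPM (hypoxia, SPP1). Apart from the library at 472 CPM, the cells libraries lay between 162 and 199.8 CPM, and medium, normoxia, noSPP1 replicate 3 was the only medium library above 156 CPM. With washed cells it was at 278, 269 and 293 CPM (normoxia, noSPP1), 696, 599 and 244 CPM (normoxia, SPP1), 188, 212 and 130.3 CPM (hypoxia, noSPP1) and 338, 175 and 149 CPM (hypoxia, SPP1). The naive libraries were at 192 and 103 CPM, within the range of medium.

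MALAT1 averaged 128 CPM ± 40.3 (SD, n = 11) in medium, 200.9 ± 86.2 (n = 12) in cells, 298 ± 176 (n = 12) in washed and 148 ± 63.2 (n = 2) in naive. Washed, normoxia, SPP1 had the highest group mean (513 CPM ± 238, n = 3) and medium, hypoxia, SPP1 the lowest (107 ± 7.01, n = 3), and all 12 neighbouring pairs of groups overlapped. The rise over medium was 0.60 on the log2 scale in cells (SE 0.185, 1.52-fold, adjusted p = 0.00696) and 1.07 in washed (SE 0.187, 2.10-fold, adjusted p = 8.18e-06), by edgeR with Benjamini-Hochberg adjustment. Of all IDs tested, 48.7% passed in cells versus medium and 58.7% in washed versus medium, in either direction, so passing there set no RNA apart from the rest. Without the 5 high-SNORD3A libraries the rise was 0.41 in cells and 0.64 in washed. Those 5 were chosen by their SNORD3A level after it was seen. Leaving them out also leaves washed, normoxia, SPP1 with 1 library, so values without them only describe the other libraries. Washed against cells was 0.47 (SE 0.177, adjusted p = 0.095, edgeR) in a comparison where 7.24% of IDs passed. Against naive, MALAT1 stood at −0.19 in medium (SE 0.335, 95% interval −0.88 to 0.50, adjusted p = 0.689, edgeR), at 0.41 in cells (SE 0.346, adjusted p = 0.399, edgeR) and at 0.88 in washed (SE 0.357, adjusted p = 0.0529, edgeR). The difference of washed from naive is near the threshold, and leaving out 1 library moved it past in 4 cases. They are naive replicate 1, washed, normoxia, SPP1 replicate 3, and replicates 2 and 3 of washed, hypoxia, SPP1, with an adjusted p = 0.0304, 0.0203, 0.0465 and 0.0382, respectively (edgeR). Without naive replicate 2 the difference was 0.52 (adjusted p = 0.512, edgeR), and without the 5 high-SNORD3A libraries it was 0.51 (adjusted p = 0.0972, edgeR).

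RN7SL1, the signal recognition particle RNA, was highest in naive splenocytes and lower in all 3 modes. The naive libraries were at 281 and 432 CPM (288 and 332 counts), above each of the 35 others. In medium it was at 42.8 and 131 CPM (normoxia, noSPP1), 34.1, 40.1 and 39.8 CPM (normoxia, SPP1), 73.2, 41.7 and 53.1 CPM (hypoxia, noSPP1) and 38.7, 37.9 and 44.9 CPM (hypoxia, SPP1). Of the 11 medium libraries 9 were thus at 53.1 CPM or below. With unwashed cells it was at 83.8, 51.0 and 52.4 CPM (normoxia, noSPP1), 64.8, 53.7 and 56.3 CPM (normoxia, SPP1), 61.3, 152 and 42.4 CPM (hypoxia, noSPP1) and 44.6, 116 and 67.2 CPM (hypoxia, SPP1). With washed cells it was at 66.3, 74.4 and 133 CPM (normoxia, noSPP1), 257, 191 and 75.4 CPM (normoxia, SPP1), 55.0, 135 and 55.7 CPM (hypoxia, noSPP1) and 235, 89.1 and 41.4 CPM (hypoxia, SPP1). The washed libraries reached from the level of the lowest cells library to just under the lower naive library.

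RN7SL1 averaged 357 CPM ± 107 (SD, n = 2) in naive, 117 ± 73.7 (n = 12) in washed, 70.5 ± 32.6 (n = 12) in cells and 52.5 ± 28.2 (n = 11) in medium. Naive led the order of group means without overlap with the next, washed, normoxia, SPP1 (174 CPM ± 91.8, n = 3), and the other 11 neighbouring pairs overlapped down to medium, normoxia, SPP1 (38.0 ± 3.39, n = 3). Relative to naive, RN7SL1 fell by 2.77 on the log2 scale in medium (SE 0.389, 6.80-fold, adjusted p = 1.71e-06, edgeR). It fell by 2.36 in cells (SE 0.385, 5.12-fold, adjusted p = 1.59e-05, edgeR), a comparison in which 27.3% of all IDs passed. In washed it fell by 1.68 (SE 0.399, 3.20-fold, adjusted p = 0.00123, edgeR), where 34.5% passed. Only 2 naive libraries stand behind these values, and without naive replicate 2 the difference of washed from naive was −1.32 with an adjusted p = 0.114 (edgeR), while the falls in medium and cells still passed without either naive library. Among the modes, RN7SL1 was higher in washed than in medium by 1.09 (SE 0.262, 2.13-fold, adjusted p = 0.00058, edgeR). Without the 5 high-SNORD3A libraries that difference was only 0.41, whereas relative to naive RN7SL1 then fell by 2.28 in washed. Those 5 were chosen by their SNORD3A level after it was seen, so values without them only describe the other libraries. Cells against medium was 0.41 (SE 0.261, adjusted p = 0.197, edgeR) and washed against cells 0.68 (SE 0.249, adjusted p = 0.0859, edgeR). Leaving out cells, hypoxia, noSPP1 replicate 2, washed, hypoxia, SPP1 replicate 3 or washed, normoxia, SPP1 replicate 3 brought both RN7SL1 and MALAT1 past the threshold in washed versus cells, with adjusted p-values from 0.00645 to 0.0484 (edgeR). Leaving out washed, hypoxia, SPP1 replicate 1 gave an adjusted p = 0.236 for MALAT1 and 0.262 for RN7SL1 (edgeR). Without the 5 high-SNORD3A libraries the differences were 0.23 for MALAT1 and 0.20 for RN7SL1.

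**Figure D3:**
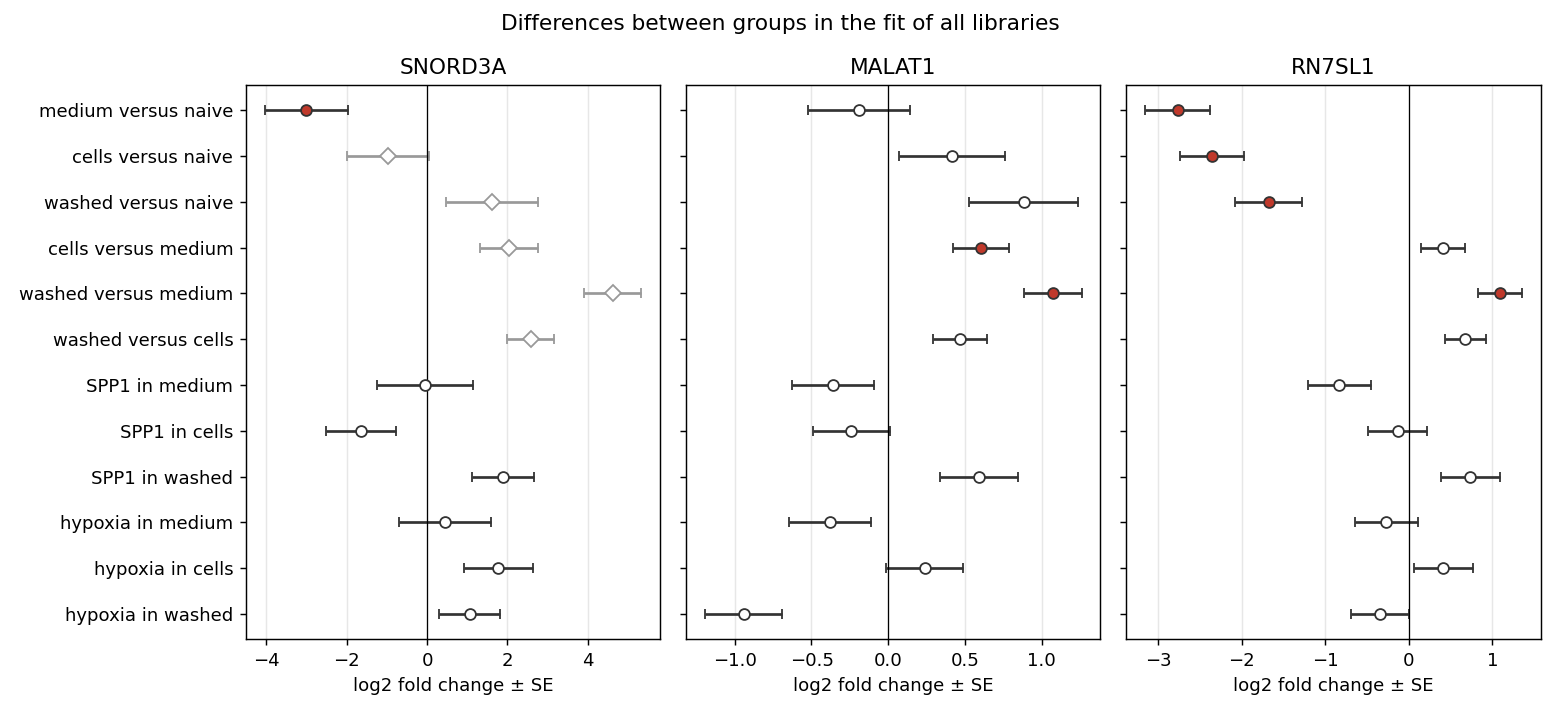
Log2 fold change ± SE from the edgeR fit (x axis, a separate range per panel) for each comparison of groups, in the 3 captured RNAs; filled red points passed at an adjusted p under 0.05, hollow circles did not, and grey diamonds are SNORD3A differences with no test. RN7SL1 passed in all 3 comparisons with naive, and no RNA passed for SPP1 or hypoxia in this fit, which has the filter on low counts.

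The captured RNAs differed in how they ranked naive splenocytes. RN7SL1 was above all exposed libraries there, SNORD3A was above all medium libraries and below the 5 high libraries, and MALAT1 was inside the medium range. Within the 5 high-SNORD3A libraries, MALAT1 was at 212 to 696 CPM (median 472), against 92.7 to 293 CPM (median 167) in the other 32. RN7SL1 was at 135 to 257 CPM (median 191) there and at 34.1 to 432 CPM (median 55.3) in the 32. The library highest in SNORD3A, washed, normoxia, SPP1 replicate 2, was below replicate 1 of its group in both MALAT1 (599 against 696 CPM) and RN7SL1 (191 against 257 CPM). The library at 898 CPM of SNORD3A was at 212 CPM of MALAT1, inside the range of the 32. As a description over the 37 libraries, which share groups and scaling, Spearman's rho was 0.652 between SNORD3A and MALAT1, 0.726 between SNORD3A and RN7SL1 and 0.703 between MALAT1 and RN7SL1. Without the 5 libraries it was 0.489, 0.593 and 0.625. Within the 12 washed libraries it was 0.727, 0.741 and 0.776, within the 12 cells libraries −0.0699, 0.399 and 0.51, and within the 11 medium libraries 0, 0.164 and 0.482. In cells, Pearson's r between SNORD3A and MALAT1 was 0.914, with 1 library far above the others in both RNAs. Differences between modes in these values were not tested.

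**Figure D4:**
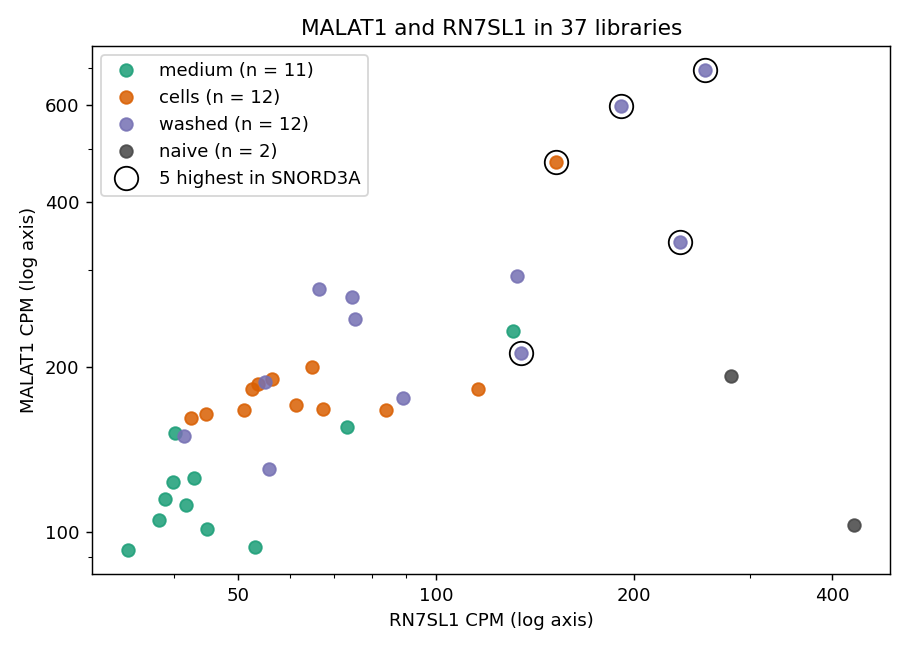
MALAT1 against RN7SL1 level in CPM (both axes log) in the 37 libraries, coloured by mode, with the 5 libraries highest in SNORD3A ringed. The naive libraries lie at the right (281 and 432 CPM of RN7SL1) at 192 and 103 CPM of MALAT1, and 4 of the 5 ringed libraries lie above all others in MALAT1.

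SPP1 and hypoxia, the treatments of the RAW264.7 cells, changed none of the 3 RNAs past the threshold within a mode among the IDs that passed the filter on low counts. By edgeR and likewise by DESeq2, 0 of 3 passed in each of the 6 comparisons. With no filter on low counts, SNORD3A passed for SPP1 in cells, SPP1 in washed and hypoxia in cells (adjusted p = 8.87e-05, 2.91e-08 and 3.93e-07, edgeR). Its values there were −1.65 (SE 0.286), 1.77 (SE 0.26) and 1.77 (SE 0.286), against SEs of 0.863, 0.779 and 0.862 with the filter. With the filter, SPP1 in cells was 0.083 without cells, hypoxia, noSPP1 replicate 2. Hypoxia in cells ranged from 0.035 to 2.04 with a cells library left out. The share of all IDs that passed without the filter is not given here, so those passes have no background to be set against. With the filter, the share that passed with edgeR was 0.25% for SPP1 in medium, 0% in cells (0 IDs by edgeR and by DESeq2, with 87 at an unadjusted p under 0.05) and 0.0193% in washed. For hypoxia it was 0.077% in medium, 3.62% in cells and 0.0385% in washed. At an unadjusted p under 0.05 there were 1, 0 and 3 of the 3 RNAs for SPP1 in medium, cells and washed, and 0, 1 and 1 for hypoxia. Of all 5193 IDs tested, 478, 87 and 527 were under it for SPP1 in the same order. For hypoxia these were 382, 928 and 426. The 3 RNAs in washed with SPP1 stood at 1.89 for SNORD3A (SE 0.779, adjusted p = 0.408, edgeR), 0.59 for MALAT1 (SE 0.251, adjusted p = 0.408, edgeR) and 0.74 for RN7SL1 (SE 0.351, adjusted p = 0.468, edgeR). Of the 4 high washed libraries, 3 had SPP1 and 1 did not, and without the 5 libraries the values were 0.057 for SNORD3A, −0.061 for MALAT1 and 0.0024 for RN7SL1. Those 5 were chosen by their SNORD3A level, which by itself changes the SNORD3A differences in cells and washed. Values without them, here and below, therefore only describe the other libraries. SNORD3A with SPP1 in cells was −1.65 (SE 0.863, adjusted p = 0.9999, edgeR) and with hypoxia in cells 1.77 (SE 0.862, adjusted p = 0.274, edgeR), values that were 0.088 and 0.05 without the 5. With hypoxia in washed it was 1.06 (SE 0.767, adjusted p = 0.751, edgeR), and −0.46 without the 5. In medium, where no library was high, SNORD3A stood at −0.05 for SPP1 (SE 1.20) and 0.45 for hypoxia (SE 1.15), resting on 2 to 20 counts per library.

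MALAT1 with hypoxia in washed had the lowest unadjusted p among these comparisons, though not the lowest adjusted p, at −0.94 (SE 0.252, unadjusted p = 0.000622, adjusted p = 0.323, edgeR). The 6 hypoxia libraries there were at 130.3 to 338 CPM and the 6 normoxia libraries at 244 to 696 CPM, and the ranges overlapped through a single hypoxia library. Without washed, normoxia, SPP1 replicate 3 the value was −1.14 with an adjusted p = 0.0237 (edgeR), and with any other washed library left out it did not pass, with an adjusted p of up to 0.713 (without washed, hypoxia, noSPP1 replicate 3). Without the 5 high-SNORD3A libraries it was −0.70. In cells the hypoxia difference of MALAT1 was 0.24 (SE 0.250, adjusted p = 0.676, edgeR), and −0.089 without the 5 libraries. The difference between these hypoxia effects, washed minus cells, was −1.18 (SE 0.355, unadjusted p = 0.00201, adjusted p = 0.283, edgeR). Of the 18 such differences of an SPP1 or hypoxia effect between modes, 5 had an unadjusted p under 0.05 and 0 passed after adjustment (lowest adjusted p = 0.246, edgeR), so none of the 3 RNAs was shown to respond unlike in different modes. How many of all IDs had an unadjusted p under 0.05 in these differences is not given here.

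By the likeness measure, Spearman's rho over the 37 libraries among 2852 IDs with a mean of at least 4 log2 CPM, the ID nearest to SNORD3A was ENSG00000154310.17 (rho 0.893), followed by ENSG00000100354.21 (0.858). For MALAT1 these were ENSG00000164548.11 (0.907) and ENSG00000164949.8 (0.904), and for RN7SL1 ENSG00000005483.21 (0.828) and ENSG00000078403.17 (0.827). These IDs are not paired with gene names in the tables used here, and the likeness includes differences between modes that many IDs share.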

How the data were processed

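3′ RNA libraries of 37 splenocyte samples were analysed. The authors trimmed reads with bbduk, used STAR 2.7.10b for alignment to GRCh38 and featureCounts (Rsubread 2.0.3) for counting, and they deposited the values as raw counts per human Ensembl ID. The annotation release, the strand setting, and the handling of multiply aligned reads and of the unique molecular identifiers are not given in the sources used here. Library totals ran from 631574 to 1337314 counts, so a single count is worth about 1 CPM, and intervals cover counting error only. Groups came from the treatment labels.

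Counts were scaled by TMM and tested with the quasi-likelihood test of edgeR 4.0.16 in R 4.3.3 over 13 group means, all libraries included, for the 5193 of 22657 counted IDs that passed a minimum count of 10 (filterByExpr), with Benjamini-Hochberg adjustment over all of them and a threshold of 0.05. Mode comparisons average the 4 groups of a mode. DESeq2 1.42.0, RLE size factors, plain totals (for levels), no filter, fits of the compared modes alone, a replicate block and each library left out were alternatives, and the scripts were tested on simulated data. Members and lists were chosen with earlier results of these data known. The genes named are the 6 members, with the 2 IDs most like each and 2 further IDs chosen after their values were seen. Partner and marker lists were not run, since no human ID matched the mouse gene tables. The sequence of RN7SL1 is not reported here.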

Additional observations from a re-analysis of the deposited data

Results flagged for a closer look

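Within each mode, the libraries with and without SPP1 and those of each oxygen level were searched for a single library far from the rest, by Dixon's ratio of the gap to the range at its 95% critical value. Of 36 such checks on the 3 captured RNAs, 8 met it, and chance alone gives about 1 in 20. Several share a library.

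Cells, hypoxia, noSPP1 replicate 2 was far above the rest in 4 of the 8. It held 440.3 CPM of SNORD3A, with the next library at 22.4 CPM among hypoxia and at 26.0 CPM among noSPP1 libraries with unwashed cells. It held 472 CPM of MALAT1, with the next library at 182 CPM in both. Washed, hypoxia, noSPP1 replicate 2 held 898 CPM of SNORD3A, with the next noSPP1 washed library at 32.1 CPM. Both are among the 5 libraries that stand apart in SNORD3A.

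The other 3 were outside those libraries. Medium, hypoxia, noSPP1 replicate 1 held 156 CPM of MALAT1 (next 115 CPM). Cells, hypoxia, SPP1 replicate 2 held 116 CPM of RN7SL1 (next 67.2 CPM). Medium, normoxia, noSPP1 replicate 3 held 131 CPM of RN7SL1, with the next of the 5 normoxia medium libraries at 42.8 CPM.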

How the results depend on the processing

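Over the alternative settings and 1 added after seeing the data (without the 5 high-SNORD3A libraries), 589 tested values kept their direction and side of the threshold, 18 newly passed, 4 no longer did and 20 changed sign with no call before or after. RLE scaling, DESeq2 and fits of the compared modes alone changed no call of the 3 RNAs. With every counted ID kept, the RNAs passing were 2 in washed versus naive, 1 in washed versus cells, and 1 each for SPP1 in cells, SPP1 in washed and hypoxia in cells (SNORD3A in the last 3, adjusted p = 8.87e-05, 2.91e-08 and 3.93e-07, edgeR). These SNORD3A values were close to those with the filter and had smaller SEs, and the cause was not tested. Without the 5 libraries, which were chosen by their SNORD3A level, values only describe the other libraries. The RN7SL1 difference of washed from medium was then 0.41, and the SNORD3A difference of washed from naive reversed to −1.22. Other values, none of which passed before or after, also changed sign there: SPP1 in cells stood at 0.088 for SNORD3A, 0.10 for MALAT1 and 0.23 for RN7SL1, SPP1 in washed at −0.061 and hypoxia in cells at −0.089 for MALAT1, and hypoxia in washed at −0.46 for SNORD3A.

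Deviations of same-numbered libraries from their group means had a median r of 0.0044 over 187 pairs (−0.477 to 0.53, 35 over 0.1). The median was 0.00067 for libraries of unlike number, and 16 of 35 libraries correlated best with their own number. These values do not settle whether the numbers pair samples, and the main fit has no block. With a replicate block, 1 RNA passed in medium versus naive (SNORD3A at adjusted p = 0.0562, edgeR) and 2 in washed versus naive (MALAT1 at adjusted p = 0.0341, edgeR). For the fits with a block, with every counted ID kept or with libraries left out, the share of all IDs that passed is not given here. In the main fit it was 27.3% to 58.7% in the mode comparisons except washed versus cells (7.24%). For SPP1 and hypoxia it was 0% to 3.62%.

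With each library left out in turn, 1 to 2 RNAs passed in medium versus naive, 1 to 1 in cells versus naive, 0 to 2 in washed versus naive, 1 to 2 in cells versus medium, 2 to 2 in washed versus medium, 0 to 2 in washed versus cells, 0 to 1 for hypoxia in washed and 0 to 0 for hypoxia in medium and cells and for SPP1 in each mode. RN7SL1 passed in cells versus medium without medium, normoxia, noSPP1 replicate 3 (adjusted p = 0.0412, edgeR), which leaves that group 1 library, assumed to vary like the others. Values with no call that changed sign ranged, with a library left out, from −0.58 to 0.41 for MALAT1 in medium versus naive, from −0.34 to 0.13 for SNORD3A with SPP1 in medium, in cells with SPP1 from −1.92 to 0.083 for SNORD3A, from −0.37 to 0.10 for MALAT1 and from −0.37 to 0.23 for RN7SL1, and with hypoxia from −0.55 to 0.26 for RN7SL1 in medium, from −0.11 to 0.37 for MALAT1 in cells and from −0.90 to 1.37 for SNORD3A in washed. Over all alternatives, RN7SL1 had an adjusted p from 3.18e-16 to 0.00175 in medium versus naive and from 1.34e-11 to 0.011 in cells versus naive, and MALAT1 from 0.00257 to 0.044 in cells versus medium (edgeR or DESeq2). Depth limits SNORD3A in medium, at 20 counts or fewer. Why NEAT1, RN7SK and RN7SL2 were not captured was not tested.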
